A study of Mus musculus with 4 samples.

Results

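The genes described are 10 immediate early genes in CD8 T cells sorted from mouse tumours. Fos, Fosb, Jun, Junb, Jund and Atf3 are of the AP-1 group, Egr1, Egr2 and Egr3 of the Egr family, and Dusp1 of neither. They were chosen by gene symbol, and all 10 were found among the 31253 genes listed for each library. Immediate early genes are transcribed within minutes of a stimulus, without new protein synthesis. In T cells, signals from the antigen receptor reach them through the MAP kinases, and the enzymatic and mechanical steps that free cells from a tissue are also known to raise them. Fos and Jun proteins pair into the AP-1 transcription factor, Egr proteins are zinc finger transcription factors, and Dusp1 is a phosphatase that switches MAP kinases off again.

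The data were 4 droplet single-cell RNA sequencing libraries of CD45+ CD8+ cells, each made from the pooled cells of 3 mice bearing tumours of MB49, a mouse bladder carcinoma line. WT and KO came from C57BL/6Slac mice aged 10 to 12 weeks, and in KO the gene Bfar was deleted in CD8 T cells. Young and Aged came from Rag1-/- hosts aged 8 to 10 weeks, which lack lymphocytes with rearranged receptors and were given CD8 T cells by vein on the day of tumour inoculation. The donors were 8 weeks old for Young and 18 months old for Aged. The host strain is written B6.129S7-Rag1tm0Mom/J for Young and B6.129S7-Rag1tm1Mom/J for Aged. Tumours of all 4 groups were digested with an enzymatic dissociation kit before sorting. Libraries of the first pair (WT, KO) used a 3' kit, those of the second (Young, Aged) an immune profiling kit, and levels were therefore not compared across the pairs. Each group was 1 library: no spread between replicates could be measured, no test was possible, and every interval is a 95% interval that covers counting error only. Differences below are differences between these libraries.

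A barcode was used if it held at least 1000 unique molecular identifiers (UMIs) from at least 500 genes, with no more than 10% of them mitochondrial, and at least 1 UMI each of a CD3 and a CD8 gene. The 8966 cells of WT had a median of 6341 UMIs, the 8153 of KO 6870, the 9803 of Young 4510 and the 8252 of Aged 5768. Cd3e stood at 488 to 985 counts per 1000000 UMIs (CPM) and Cd8a at 600.1 to 846 CPM in the 4 libraries. Bfar stood at 32.1 CPM in WT and 22.4 CPM in KO; the sources used here do not name the deleted part of the gene or the Cre driver. Young and Aged shared 136 kept barcodes and WT and KO shared 19. Some CD3 and CD8 positive barcodes fell in clusters led by genes of other cell types. The cells were therefore also described in the T cell clusters alone: 13 of 19 clusters in the first pair and 13 of 22 in the second. These were clusters in which at least 85% of barcodes were CD3 and CD8 positive and fewer than 2 of the 10 leading genes were markers of 1 other cell class. That cutoff was set after the clusters had been seen, and the clusters were made without the 10 genes. The clusters left out were not all of other cell types. In the first pair they included a cluster led by Foxp3, Areg and Klrg1, where 84.6% of barcodes were CD3 and CD8 positive. In the second they included a cluster led by Gphn, Camk1d and Tmtc2, where 59.2% were positive and no leading gene was a marker of another class.

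RefSeq promoter sequences (build GRCm38.p6) of 8 of the 10 genes were searched, on both strands, for elements through which immediate early genes are known to be switched on. Egr1 and Egr3 were not among the 8. The elements were the cyclic AMP response element (CRE) TGACGTCA, its core TGACG, the AP-1 site TGACTCA or TGAGTCA, and the CArG box bound by serum response factor; a CRE also counts as a core. The 250 bases before the transcription start are shown for the 3 genes whose windows held the most of them, with matches in capitals, at chr12:85473640-85473889 (plus strand) for Fos, chr10:67537619-67537868 (plus strand) for Egr2 and chr17:26508473-26508722 (minus strand) for Dusp1.
Fos: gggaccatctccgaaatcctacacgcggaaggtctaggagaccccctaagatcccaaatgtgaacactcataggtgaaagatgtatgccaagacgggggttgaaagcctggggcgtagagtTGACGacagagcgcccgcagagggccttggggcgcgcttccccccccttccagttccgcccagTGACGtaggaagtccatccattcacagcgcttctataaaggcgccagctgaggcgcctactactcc
Egr2: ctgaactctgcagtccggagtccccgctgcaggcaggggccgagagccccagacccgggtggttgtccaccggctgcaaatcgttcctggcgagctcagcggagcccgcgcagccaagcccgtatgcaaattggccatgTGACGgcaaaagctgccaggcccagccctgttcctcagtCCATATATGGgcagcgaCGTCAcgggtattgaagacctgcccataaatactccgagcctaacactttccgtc
Dusp1: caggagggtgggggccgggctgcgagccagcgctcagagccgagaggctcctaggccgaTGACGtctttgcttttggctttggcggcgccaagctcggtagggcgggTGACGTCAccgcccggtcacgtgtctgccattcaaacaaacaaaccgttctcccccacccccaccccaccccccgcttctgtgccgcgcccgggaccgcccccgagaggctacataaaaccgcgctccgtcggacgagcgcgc
The Fos window held the core beginning 129 and 66 bases before the start. RefSeq gives 5 start sites for Egr2, and the window shown is that of the third. It held a CArG box beginning 72 bases before the start, between cores beginning 111 and 55 bases before it. The windows of the fourth and the fifth start site held the same elements, that of the second a CArG box without a core, and that of the first none of the elements. The Dusp1 window held a full CRE beginning 143 bases before the start and a separate core beginning 191 bases before it. Of 32851 mouse promoter windows of this length, 1.55% held a CRE, 17.8% a core, 4.46% an AP-1 site and 1.47% a CArG box. Cores were also present in the windows of Fosb, Junb and Atf3, and no window of the 8 genes held an AP-1 site. The Jund window ended at base 70697738 of chromosome 8, before the annotated start of Jund at 70698949 (plus strand). The Atf3 window (chr1:191183334-191183583, minus strand) lay inside the annotated gene, which begins at 191218039. Neither window thus lay at the annotated start of its gene. A match is a description of letters and not evidence of binding.

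In CD3 and CD8 positive cells, the Fos family genes, the Egr genes and Jun were lower in KO than in WT, and the same genes were lower in Aged than in Young. With the T cell clusters alone each of these differences shrank or crossed 1. The genes encode proteins with separate roles, and they are taken in turn below, with all CD3 and CD8 positive cells first and the T cell clusters second.

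**Figure D1:**
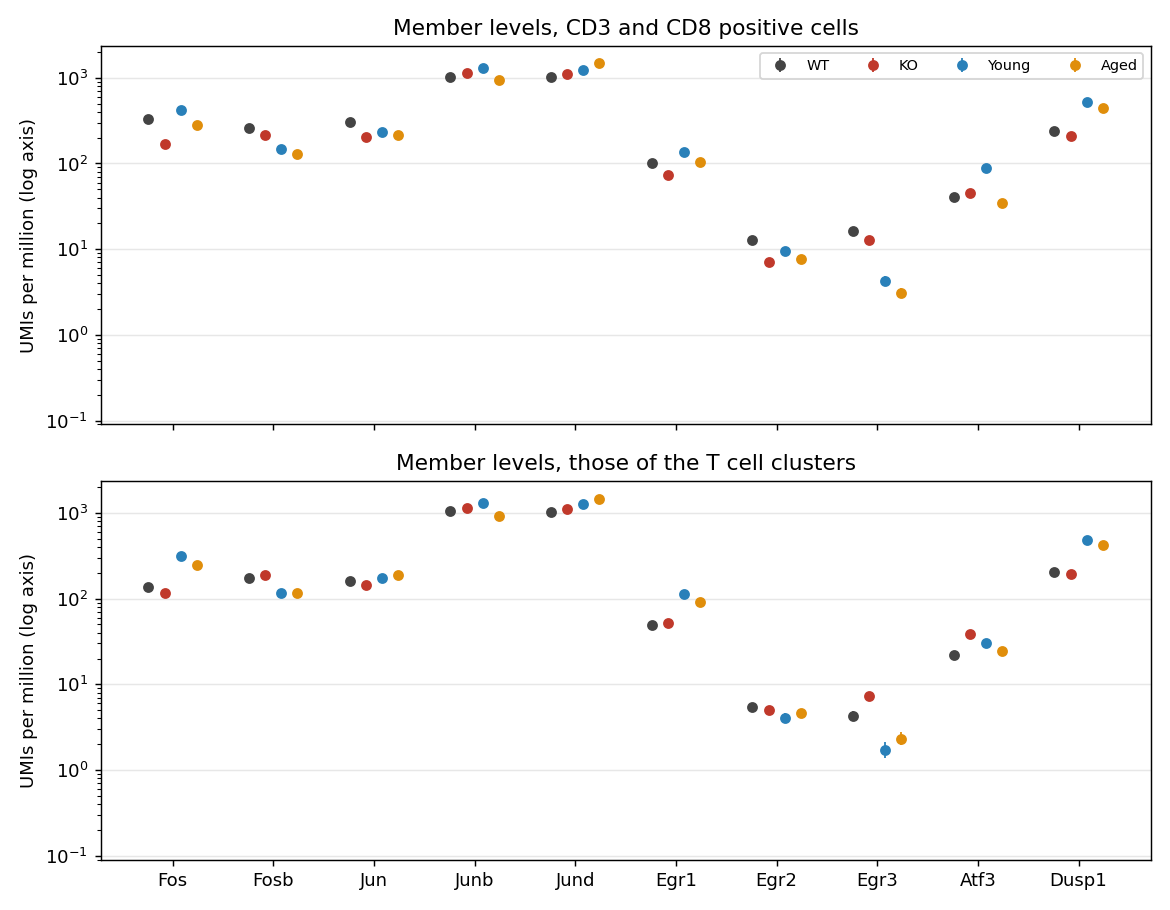
Level of each gene in CPM (log axis) in the 4 libraries, with 95% Poisson intervals, for all CD3 and CD8 positive cells (top) and for those in the T cell clusters (bottom). Fos in WT stands at 329 in the top panel and 138 in the bottom one, while Junb and Jund hardly differ between panels.

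Fos encodes the founding Fos subunit of AP-1. Its level in CD3 and CD8 positive cells was 329 CPM in WT, 168 CPM in KO, 416 CPM in Young and 284 CPM in Aged. KO lay below WT with a ratio of 0.51 (0.499 to 0.521), and Aged below Young with a ratio of 0.683 (0.67 to 0.696). Within the T cell clusters Fos stood at 138 CPM in WT, 116 CPM in KO, 317 CPM in Young and 248 CPM in Aged. There the ratio was 0.84 (0.815 to 0.866) for KO against WT and 0.781 (0.764 to 0.799) for Aged against Young, so Fos stayed on the low side in KO and in Aged in both sets of cells. The difference from all CD3 and CD8 positive cells was larger in the first pair. Fosb, a second Fos subunit, stood at 258 CPM in WT, 217 CPM in KO, 149 CPM in Young and 129.98 CPM in Aged. Its ratios were 0.842 and 0.872. Restricted to the T cell clusters, the ratios were 1.09 (1.06 to 1.12) for KO against WT and 1.01 (0.971 to 1.04) for Aged against Young, so Fosb no longer lay below 1 in either pair.

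Jun encodes a subunit that pairs with Fos proteins or with itself. Its level in CD3 and CD8 positive cells was 307 CPM in WT, 202 CPM in KO, 231 CPM in Young and 213 CPM in Aged. The ratio was 0.659 (0.645 to 0.673) for KO against WT and 0.923 (0.902 to 0.945) for Aged against Young. Within the T cell clusters Jun stood at 162 CPM in WT, 143 CPM in KO, 175 CPM in Young and 189 CPM in Aged, with ratios of 0.884 and 1.08. Jun was thus lower in KO in both sets, and changed side of 1 in the second pair. Jun overlaps the antisense gene Junos in the annotation.

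Junb and Jund encode the other Jun subunits; JunD is known as the one present in resting cells, and JunB as an antagonist of Jun at some targets. Junb stood at 1036 CPM in WT, 1131 CPM in KO, 1290.1 CPM in Young and 945 CPM in Aged. The ratio was 1.09 (1.08 to 1.1) for KO against WT and 0.732 for Aged against Young. Restricted to the T cell clusters they were 1.09 and 0.71. Junb was lower in Aged in all 12 T cell clusters with enough cells in both libraries, with ratios of 0.587 to 0.961. Jund stood at 1028 CPM in WT, 1112 CPM in KO, 1247 CPM in Young and 1475 CPM in Aged, with ratios of 1.08 and 1.18. It was higher in Aged in 11 of 12 T cell clusters, the exception being the cluster led by Gzmf, Gzme and Gzmd at 0.998. Junb and Jund therefore lay on opposite sides of 1 in Aged against Young. The overlapping genes Prdx2 and Gm11175 lie on the opposite strand to Junb and Jund.

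Atf3 encodes a stress-induced bZIP factor that can pair with Jun proteins. Its level was 40.7 CPM in WT, 45.9 CPM in KO, 88.5 CPM in Young and 34.4 CPM in Aged. The ratio of 0.388 (0.37 to 0.408) for Aged against Young was the lowest of the 10. Within the T cell clusters Atf3 stood at 21.8 CPM in WT, 38.8 CPM in KO, 30.1 CPM in Young and 24.8 CPM in Aged. There it was 1.78 (1.67 to 1.9) times as high in KO as in WT and 0.825 (0.768 to 0.886) times as high in Aged as in Young. In Young, 72% of the Atf3 UMIs lay outside the T cell clusters, against 32% in Aged. The cluster led by H2-Ab1, H2-Eb1 and Plbd1, genes of antigen-presenting cells, held Atf3 at 578 CPM in Young and 393 CPM in Aged.

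Egr1, the Egr gene most often read as a sign of recent signalling, stood at 101 CPM in WT, 73.1 CPM in KO, 135 CPM in Young and 104 CPM in Aged. The ratios were 0.722 (0.697 to 0.748) and 0.772 (0.748 to 0.798). Restricted to the T cell clusters they were 1.05 (1 to 1.11) and 0.799 (0.77 to 0.829), so Egr1 stayed lower in Aged while the ratio of KO to WT lay close to 1. Egr2 and Egr3, which are known to restrain T cells after activation, were rare. Egr2 stood at 13 CPM in WT, 7.14 CPM in KO, 9.41 CPM in Young and 7.63 CPM in Aged. Within the T cell clusters it stood at 5.46 CPM in WT, 5.05 CPM in KO, 4.09 CPM in Young and 4.64 CPM in Aged, with ratios of 0.926 (0.795 to 1.08) and 1.14 (0.946 to 1.37), both with intervals that include 1. Egr3 stood at 16.1 CPM in WT, 12.6 CPM in KO, 4.28 CPM in Young and 3.07 CPM in Aged. Within the T cell clusters Egr3 was at 4.29 CPM in WT and 7.3 CPM in KO, a ratio of 1.7 (1.46 to 1.98), and at 1.73 CPM in Young and 2.33 CPM in Aged.

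Dusp1, the phosphatase, stood at 237 CPM in WT, 208 CPM in KO, 521 CPM in Young and 439 CPM in Aged. Its ratios were 0.878 (0.859 to 0.898) and 0.842 (0.828 to 0.855). In the T cell clusters they were 0.969 and 0.874, so Dusp1 was lower in KO and in Aged in both sets, by small amounts. In the annotation Dusp1 overlaps other genes on both strands, and the sources used here do not say how reads of such genes were divided.

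**Figure D2:**
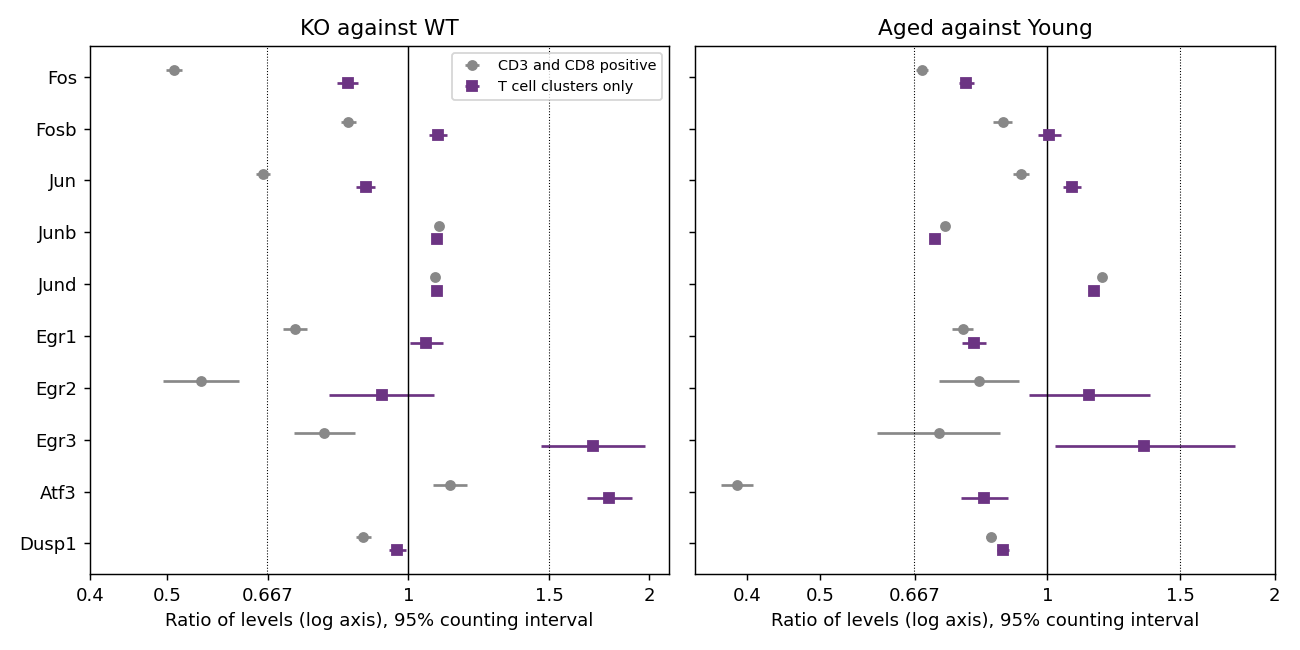
Ratio of levels (log axis) of each gene in KO against WT (left) and Aged against Young (right) with 95% counting intervals, in all CD3 and CD8 positive cells (circles) and in the T cell clusters (squares). Dotted lines mark 1.5 times higher and lower. Fos in KO moves from 0.51 to 0.84, and Atf3 in Aged from 0.388 to 0.825.

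Genes with 20 or more UMIs over the pair and 10 CPM or more in either library were taken as measured, and a ratio past 1.5 times in either direction as higher or lower. In KO against WT, 3 of 10 measured members were lower (Fos, Jun and Egr2) and 0 were higher, where 3.09% of 7415 measured genes were lower and 0.607% higher. In Aged against Young, 1 of 8 measured members (Atf3) was lower and 0 were higher, where 3.83% of 7938 genes were lower and 2.62% higher. The median log2 ratio, with a pseudocount of 1 CPM, was -0.29 over the members in KO against WT, where it was -0.048 over all measured genes. In Aged against Young it was -0.31 over the members and 0.083 over all measured genes. In the T cell clusters, 1 of 8 measured members (Atf3) was higher in KO and 0 were lower, where 0.531% of 7160 genes were higher and 0.391% lower. In Aged, 0 of 8 were higher and 0 lower there, where 3.2% of 7786 genes were higher and 1.82% lower. The median log2 ratio of the members in the T cell clusters was 0.095 in KO against WT and -0.23 in Aged against Young. Over all measured genes there it was -0.039 and 0.084.

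The barcodes outside the T cell clusters were few but held a large share of the members' UMIs. They were 371 WT, 201 KO, 977 Young and 413 Aged cells, which is 4.14%, 2.47%, 9.97% and 5% of the CD3 and CD8 positive cells. They held 63.6% of the Fos UMIs in WT, 35.3% in KO, 37.1% in Young and 17.7% in Aged. Their share of all UMIs was 13.5%, 6.54%, 17.5% and 5.78% in the same order. For Jun their share was 54.4% in WT and 33.8% in KO, and for Egr3 76.9% in WT and 46% in KO. For Junb it was 12% in WT and 5.47% in KO, below their share of all UMIs. Of these clusters, the one led by Fgb, Trf and Krt8 held Fos at 3017 CPM in WT and 2663 CPM in KO, and the one led by the mast cell proteases Mcpt2 and Mcpt1 held Egr3 at 351 CPM in WT and 356 CPM in KO. These levels are over all kept cells of those clusters, CD3 and CD8 positive or not. The 7 epithelial or tumour markers summed to 348 CPM in WT and 136 CPM in KO in CD3 and CD8 positive cells, and to 9.69 and 5.5 CPM in the T cell clusters. The 6 mast cell or basophil markers summed to 328.5 CPM in WT and 132 CPM in KO, and to 24.6 and 24.9 CPM in the T cell clusters. Between Young and Aged, the 10 dendritic markers summed to 1495 and 443 CPM, and to 172 and 132 CPM in the T cell clusters. There 0 of the 7 epithelial or tumour markers, 1 of the 6 mast cell markers in WT and KO, and 2 of the 10 dendritic markers in Young and Aged reached 10 CPM. How much of each difference such cells make was not tested beyond the values given without them.

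**Figure D3:**
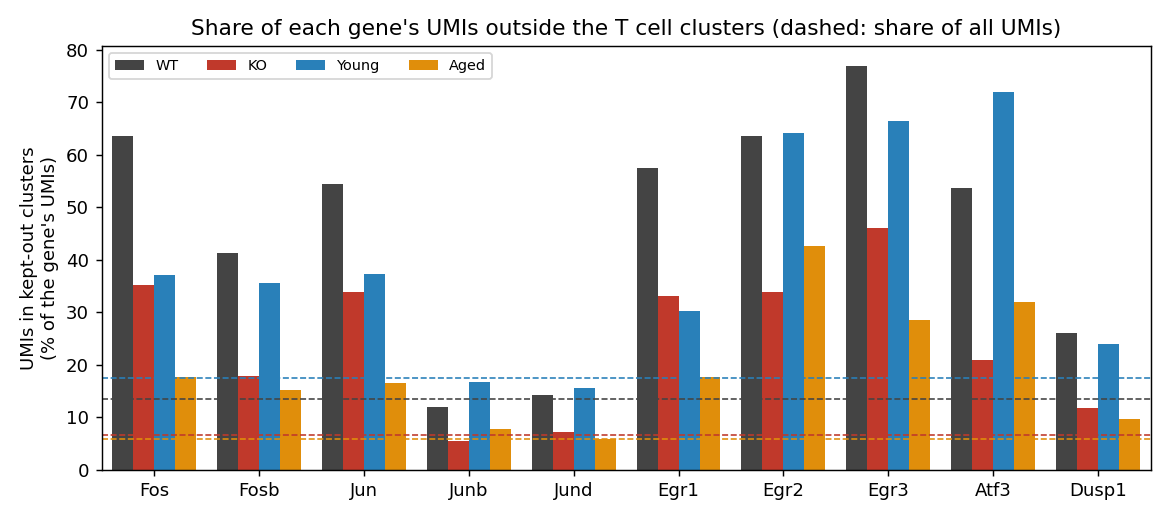
Percent of each gene's UMIs in CD3 and CD8 positive cells that lay outside the T cell clusters, with bars for the 4 libraries and dashed lines for the share of all UMIs outside them. The bars of Fos, Egr2, Egr3 and Atf3 in WT or Young pass their dashed line, while those of Junb do so in Aged alone.

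Shares of cells with a UMI were taken after each cell had been thinned to 2000 UMIs, which left out 71 WT, 44 KO, 422 Young and 136 Aged shallower cells of the T cell clusters. No cell type in these libraries is known to lack these genes, so a background share could not be set. In the T cell clusters, Fos was found in 19.6% of WT cells (18.7 to 20.4), 16.1% of KO cells, 37.5% of Young cells and 32.5% of Aged cells. Before thinning these shares were 37.9%, 33.6%, 56.5% and 55.8%, with Aged close to Young at unequal depths. Atf3 was found in 3.86% of WT cells (3.46 to 4.29) and 6.22% of KO cells (5.7 to 6.78). Junb was found in 82.7% of Young cells and 73.2% of Aged cells, and Jund in 86% and 90.4%. Egr2 and Egr3 were found in 0.464% to 1.19% of cells in every library.

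Members were found in the same cells more often than independent detection at the same shares would give. At least 5 of the 10 genes had a UMI in 9.9% of WT cells, 9.12% of KO cells, 17.9% of Young cells and 16.5% of Aged cells of the T cell clusters. These were 2.26, 2.24, 1.38 and 1.65 times the shares expected if each gene were detected independently, while at least 3 genes were detected in 0.898 to 0.932 times the expected share. Of 45 pairs of genes, 41 were found together more often than the product of their shares in all 4 libraries and 0 less often in all 4. No such values were taken for other genes of like shares, so co-detection is not shown to be particular to the members. Fos and Fosb were found together in 767 WT, 548 KO, 769 Young and 721 Aged cells, at 1.97, 1.88, 1.36 and 1.48 times the product. Junb and Jund were together at 1.01 to 1.02 times the product, near what independent detection would give. Egr2 and Egr3 gave the highest mean, at 4.37 to 8.62 times the product, but rested on 2 to 5 cells in each library. Cells of 1 library share its depth and handling, and these ratios are descriptions.

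**Figure D4:**
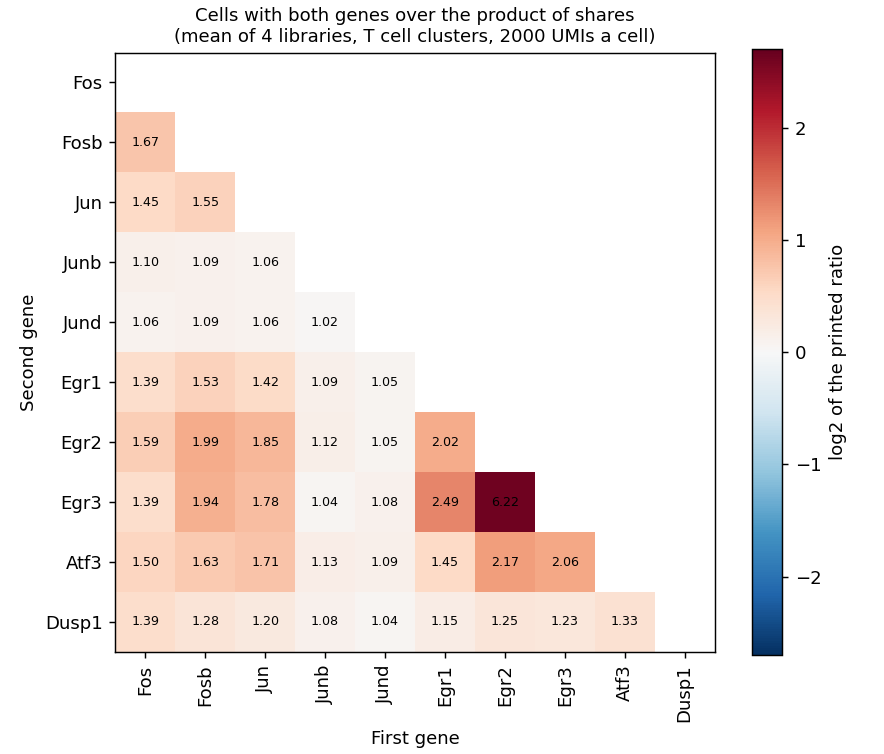
Cells with UMIs of both genes over the number expected from the product of their shares, as a mean of the 4 libraries in the T cell clusters at 2000 UMIs a cell (colour: log2 of the printed ratio). The values run from 1.02 for Junb and Jund to 6.22 for Egr2 and Egr3.

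The T cell clusters of a library differed in their level of the genes. In WT, Fos ran from 52.4 CPM in the cluster led by Gzmb, Ifit1bl1 and Ifi214 to 328 CPM in the cluster led by Il17a, Il17f and Hey1, genes of interleukin 17 producing cells. In KO the same clusters were again the lowest and the highest, at 58 and 208 CPM. Atf3 was highest in the cluster led by Ifitm1, Ifitm2 and Lgals3 in both WT (63.6 CPM) and KO (78.9 CPM). In Aged, Egr1 (204 CPM), Egr2 (29.3 CPM) and Junb (2120 CPM) were highest in the cluster led by Il10ra, Tor4a and Adap1, a cluster of 38 Young and 353 Aged cells. Fos was lowest in Young in the cluster led by Penk, Lag3 and Sdcbp2 (153 CPM) and in Aged in the cluster led by Gzmf, Gzme and Gzmd (131 CPM). Within clusters, Atf3 was higher in KO in 11 of 12 with enough UMIs and Egr3 in 10 of 12, while Fos was higher in KO in 3 of 13. Egr1 was lower in Aged in 11 of 12 clusters.

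**Figure D5:**
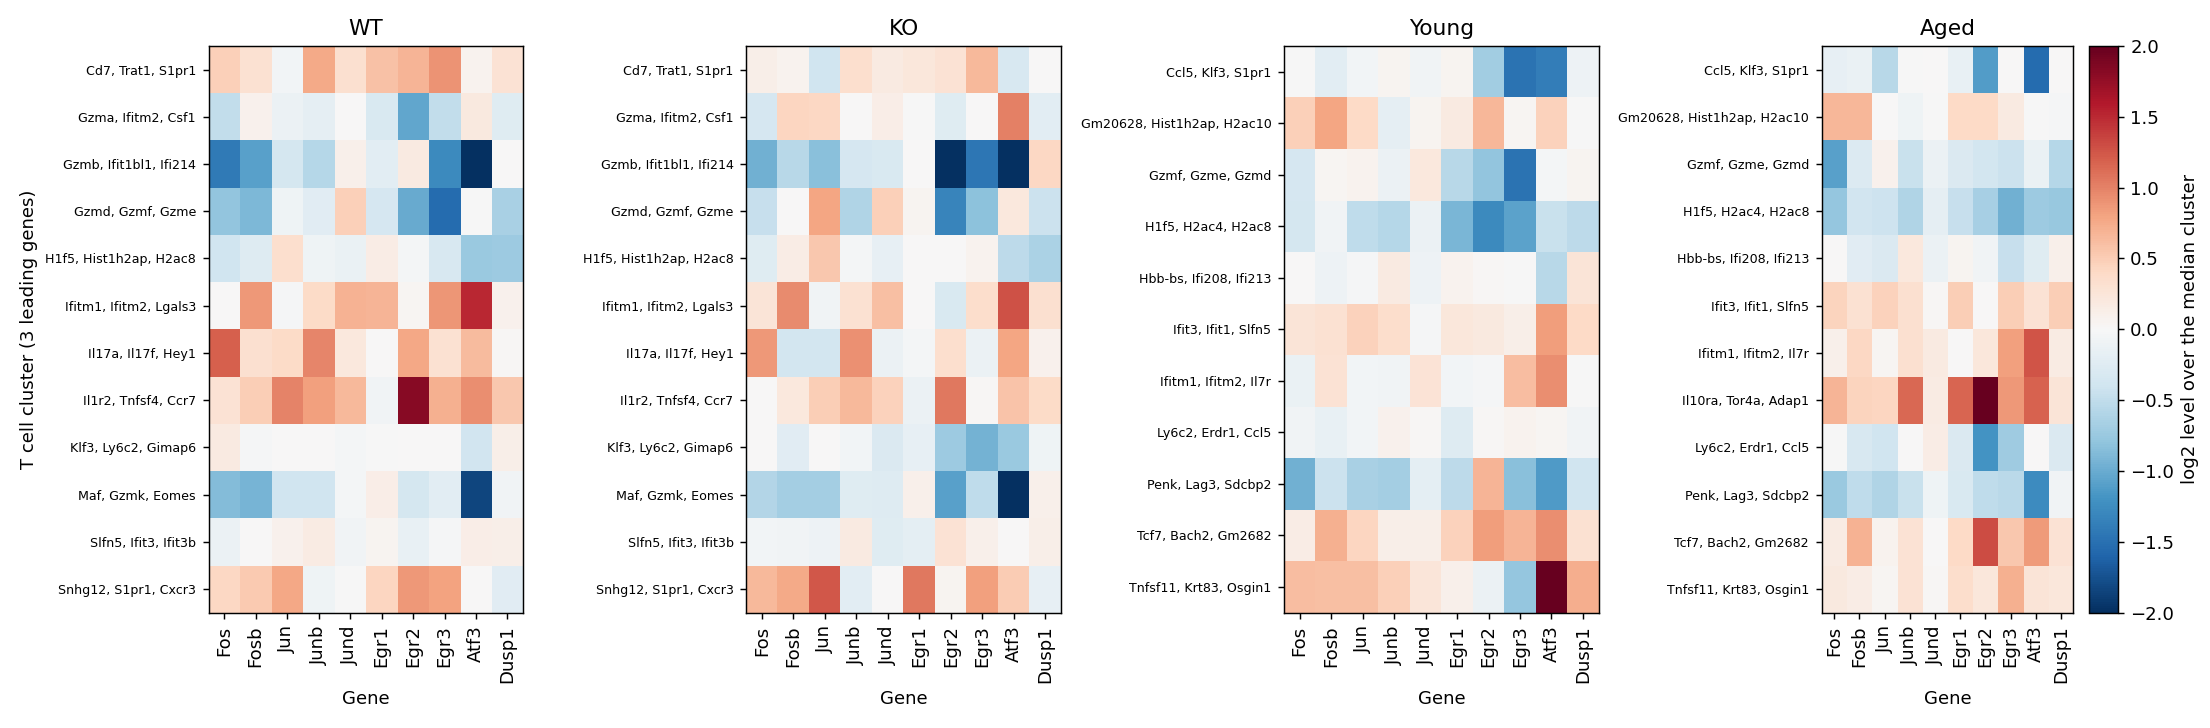
Level of each gene in the T cell clusters with at least 40 cells, 1 cluster of each pair left out, as log2 over the median cluster of that library with a pseudocount of 1 CPM; rows are clusters by 3 leading genes and columns are genes. Red stands for above the median and blue for below, and the Il17a cluster is red for Fos in WT and KO.

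Both handling of tissue and receptor signalling are known to raise these genes, and marker genes of each were set beside them in the T cell clusters. Cells with a UMI of the heat shock genes Hspa1a or Hspa1b, which rise with stress to proteins, were 5.73% of WT, 5.15% of KO, 2.65% of Young and 2.78% of Aged cells. In WT, Jun was found in 35.2% of such cells and 18.4% of the others, and Atf3 in 7.99% and 3.61%. Over the 4 libraries the share with Jun was 1.79 to 2.16 times as high in such cells, and the share with Junb 0.962 to 1.09 times. Cells with a UMI of Nr4a1, a nuclear receptor that receptor signalling induces, were 16.4% of WT, 21% of KO, 35.6% of Young and 22.3% of Aged cells. In WT, Egr1 was found in 14.1% of such cells and 7.65% of the others, and Fosb in 33.4% and 21.4%. Over the 4 libraries, Egr1 was found 1.41 to 1.84 times as often and Fosb 1.39 to 1.66 times as often. Whether handling also raised Nr4a1 was not tested. In cells with a UMI of Cd69, another of the receptor signalling genes, Egr1 was found 1.19 to 1.28 times as often. For Fosb this was 1.29 to 1.69 times. Jun was split more widely by the heat shock genes than by Nr4a1 (1.26 to 1.37 times). Fos, Fosb, Egr1 and Atf3 were found more often both in cells with heat shock genes and in cells with Nr4a1, in all 4 libraries. For Egr1 the share was 1.24 to 1.61 times as high in cells with heat shock genes, and in Young this split (1.61) was wider than that by Nr4a1 (1.41). For Fos it was 1.25 to 1.44 times as high with heat shock genes and 1.24 to 1.46 times with Nr4a1. For Atf3 it was 2.05 to 2.32 times with heat shock genes and 1.68 to 2.36 times with Nr4a1. The rare Egr2 was found 1.49 to 4.38 times as often with heat shock genes and 1.28 to 2.86 times with Nr4a1. For Egr3, also rare, these were 0.445 to 3.68 times and 2.35 to 3.48 times. The part of handling or of receptor signalling in the differences between libraries was not tested. Hspa1a stood at 183 CPM in WT, 141 CPM in KO, 41 CPM in Young and 46.4 CPM in Aged, and Nr4a1 at 104 CPM in WT, 141 CPM in KO, 269 CPM in Young and 143 CPM in Aged.

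Other lists of the same pathways were counted in the T cell clusters. Over all measured genes there, 0.531% were past 1.5 times higher and 0.391% past it lower in KO. In Aged these were 3.2% and 1.82%, so counts are not alike in meaning between the pairs. With shares this small, a count of 0 does not set a short list apart from other genes. Of the other immediate early genes, 0 of 20 measured were higher and 1 lower in KO: Klf2, a factor of resting T cells, at a ratio of 0.571, with Btg2 highest at 1.3. In Aged, 0 of 21 were higher and 4 lower: Ier5 (0.641), Zfp36 (0.653), Zfp36l1 (0.582) and Maff (0.508), with Ier3 highest at 1.37. Of the other AP-1 and bZIP factors, 0 of 12 were higher and 1 lower in KO (Maf, 0.57), with Bach2 highest at 1.18. In Aged, 2 of 11 were higher and 0 lower (Maf at 3.28 and Batf at 1.68), with Mafk lowest at 0.703. Of the heat shock genes, 0 of 16 passed the fold in KO, from Hspa1a at 0.771 to Dnajb4 at 1.22, and 0 of 15 in Aged, from Dnaja1 at 0.756 to Bag3 at 1.37. Of the receptor signalling genes, 2 of 25 were higher in KO (Ccl1 at 2.94 and Il2ra at 1.63) and 1 lower (Myc at 0.609). In Aged 5 of 24 were higher, which were Zbtb32 (4.95), Ccl3 (3.4), Tnfrsf4 (2.76), Rgs16 (2.46) and Ccl4 (1.62), and 2 lower, Nr4a1 (0.534) and Xcl1 (0.545). Of the MAP kinase genes, 0 of 20 passed the fold in KO, with Map2k3 highest at 1.23, and 0 of 21 in Aged, from Elk4 at 0.837 to Elk3 at 1.4. Of the dual-specificity phosphatases, 0 of 7 passed it in KO, from Dusp14 at 0.905 to Dusp4 at 1.46. In Aged 1 of 7 did, Dusp14 at 1.96, with Dusp2 lowest at 0.74.

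Of 3923 genes with a UMI in at least 5% of the thinned CD3 and CD8 positive cells of every library, those most like the members in their cell-to-cell pattern were Zfp36, Klf6, Nfkbia, Nr4a1, Lmna, Bhlhe40, Klf4 and Cd69. Likeness was the correlation with the number of members detected in a cell, averaged over the 4 libraries. It was 0.24 for Zfp36 and 0.18 for Cd69, which are weak values in sparse counts and carry no test. Cells outside the T cell clusters were included, and likeness was not taken in the T cell clusters alone.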

How the data were processed

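Single-cell RNA sequencing gave 4 libraries, WT, KO, Young and Aged, of 3 pooled mice each. The deposited values are whole-number UMI counts per gene and barcode, made by the authors with Cell Ranger 6.1.1 (WT, KO) or 7.1.0 (Young, Aged) per the file headers; per the submitters' processing notes, Cell Ranger 6.0.0, Seurat 3.2.3 and mm10 were used, so the version is not settled. Library totals ran from 68017515 to 85401443 UMIs. From these counts, UMIs were summed over CD3 and CD8 positive barcodes and divided by their total (CPM). Ratios carry exact conditional binomial, levels exact Poisson and shares exact (Clopper-Pearson) intervals. UMIs were thinned to 2000 per cell for shares. Each pair was clustered in scanpy 1.11.5 (Leiden, resolution 1, igraph 0.11.9, 2000 variable genes, 30 components, 15 neighbours) without the members and related lists. Doublets were not removed, and leaving out the 8% of barcodes with the most UMIs was an alternative. The summed-count script was tested on simulated data. No test across groups was possible with 1 library a group. The members and lists were chosen with earlier results of these data known. The named genes were all 10 members, the highest and lowest measured gene of each list in the T cell clusters, and the 8 genes most like the members; the other listed genes past 1.5 times were named after their values were seen. Gene positions are of mm10, and promoter sequences are RefSeq's, of build GRCm38.p6. Only the Jund and Atf3 windows were set beside gene positions. Results that rest on naming withheld items are not reported here. The alternatives, of cells, weights, scaling, pseudocount and filters, are given in the closing section.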

Additional observations from a re-analysis of the deposited data

Results flagged for a closer look

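For 5 gene and pair combinations the ratio between libraries lay more than 1.5 times below 1 in at least 1 T cell cluster and more than 1.5 times above it in at least 1 other. These ratios within clusters were taken after 1 CPM had been added to the level in each library. The lowest and highest cluster are given for 3 of the 5. The difference between clusters was not tested. Fosb in KO against WT was 0.592 in the cluster led by Il17a, Il17f and Hey1 and 1.77 in the cluster led by Gzmd, Gzmf and Gzme, with 506 KO and 227 WT cells. Jun in KO against WT was 0.511 and 1.59 in the same 2 clusters, and lay past 1.5 times lower in 3 of 13 clusters and higher in 1. Egr2 in Aged against Young was 0.445 in the cluster led by Penk, Lag3 and Sdcbp2 and 1.57 in the cluster led by H1f5, H2ac4 and H2ac8. Its levels were 2.36 CPM in Aged and 6.54 CPM in Young in the former, and 2.04 and 0.939 CPM in the latter. The former held 1669 Aged and 215 Young cells, and the latter 464 Aged and 164 Young cells. At such low levels the ratios rest on few UMIs, and no intervals are given for them. The added 1 CPM also draws them toward 1. The cause was not tested.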

How the results depend on the processing

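No paired analysis was possible because each group held 1 library. The cutoff for the T cell clusters, and the rule that a gene's ratio counts as reversed only where it passed 1.5 times at first, were set after the values had been seen, as was the range within which a median counts as unmoved; without the rule on reversal, 25 of 180 member ratios over 18 alternatives lay on the other side of 1 in KO against WT (Fosb, Jund, Egr1, Egr3 and Atf3) and 36 of 180 in Aged against Young (Fosb, Jun, Egr2, Egr3 and Atf3). The 4 alternatives that combine the T cell clusters with another choice were added after seeing the data. The median log2 ratio of the members in KO against WT, -0.287, reversed to 0.0953 in the T cell clusters, 0.0927 in cells with no UMI of other cell types' markers and 0.0415 without the 8% of barcodes with the most UMIs. In the T cell clusters it was 0.0891 without those 8%, 0.0739 without cells with Hspa1a or Hspa1b, 0.0928 without cells with other markers and 0.0625 as a mean over cells. It moved to -0.495 over all kept barcodes, -0.0603 as a mean over cells and -0.0146 when the T cell clusters had equal weights. In these 10 settings, all barcodes apart, 0 members were lower in place of 3. In place of 0, 1 member was higher in 7 of them and 2 were for the mean over cells of the T cell clusters. The median in Aged against Young, -0.309, moved to -0.206 over all kept barcodes, -0.231 in the T cell clusters, -0.234 without other markers, -0.181 without the 8%, -0.146 as a mean over cells, -0.0511 with equal weights and -0.393 with a median-of-ratios size factor. In the T cell clusters it was -0.155 without the 8%, -0.214 without Hspa1a or Hspa1b, -0.254 without other markers and -0.158 as a mean over cells. The 1 lower member became 0 in 8 of these settings and 2 with the size factor; Atf3 reversed to 1.02 when clusters had equal weights. The share of cells with at least 3 members, which was 48.2% (KO), 49.2% (WT), 62.2% (Aged) and 69.4% (Young), came to 25.1%, 26.6%, 37.8% and 42.8% at 1000 UMIs a cell, 70.7%, 70.9%, 82.7% and 87% at 4000, and 84.4%, 83.05%, 89.3% and 88.9% without thinning. The other alternatives left the counts within 1.5 times and the medians on the same side of 0. With 1 library a group, variation between mice could not be measured, and Egr2 and Egr3, the rarest members, had the widest counting intervals relative to their ratios.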
